A study of Bos taurus with 16 samples.

Results

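Integrins are cell surface receptors, each built from an alpha and a beta chain, that hold cells to the matrix or to other cells. Laminins are three-chain proteins of the basement membrane, the sheet on which epithelium, vessels and muscle cells rest, and several integrins bind them. This account follows both families in the endometrium, the lining of the uterus, while it was being remodelled after parturition. Members were all array probes, controls left out, whose gene name in the files is that of an integrin alpha chain, an integrin beta chain or a laminin chain. This gave 76 probes of 34 genes among the 43653 probes of the array, with 24 integrin chains and 10 laminin chains.

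RNA came from 4 fertile cows, each biopsied at nominal days 10, 30, 50 and 100 after parturition, with 1 array per cow and day and 16 arrays in all. Sampling fell on days 9 to 10, 29 to 30, 49 to 51 and 99 to 100. The cows received no treatment that the labels name, and the labels used here give neither breed nor age. The comparisons ask how each gene differed between these days within the same animals.

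The leukocyte integrins ITGAL, ITGAM and ITGB2 pair on the surface of white blood cells, ITGB2 being the common beta chain of the group, and serve their adhesion to vessel walls and their uptake of coated particles. The other integrins are described as receptors for collagens, for laminins and for proteins such as fibronectin and osteopontin, with a few chains known mainly from blood cells. LAMC1 is the gamma chain of most laminins. LAMA3 and LAMB3 are chains of laminin-332, the laminin of epithelial anchoring, whose receptor is the pair of ITGA6 and ITGB4 in the hemidesmosome, the junction that fixes epithelial cells to the basement membrane.

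A level here is a log2 intensity relative to percentile 75 of its array, and a probe counts as measured where the scanner software marked it well above background. Testing was limited to probes measured on 4 or more of the 16 arrays, and this kept 60 of the 76 member probes and 31 of the 34 genes. ITGA3, a laminin receptor chain, LAMA1, a laminin alpha chain, and ITGAD, a leukocyte chain, were not tested, since ITGA3 and LAMA1 were measured on 1 array each and the best of the 4 ITGAD probes on 3. No probe bore the names ITGAX, ITGA8, LAMA2 or LAMB4. A gene is represented by its tested probe with the highest mean level, and levels are set only against the same probe on other arrays. A difference is called where the adjusted p of limma, fitted with terms for day and cow, was under 0.05 after Benjamini-Hochberg adjustment over all 33182 tested probes.

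The probes behind the main results are shown as deposited, from 5′ to 3′. The 3 ITGAM probes show that this gene was read at separate places of its transcript, starting at bases 952, 2440 and 3188, with no position given on the genome.
ITGAM, base 3188: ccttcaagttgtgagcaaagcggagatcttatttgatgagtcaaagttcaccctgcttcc
ITGAM, base 2440: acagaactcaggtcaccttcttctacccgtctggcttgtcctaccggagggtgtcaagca
ITGAM, base 952: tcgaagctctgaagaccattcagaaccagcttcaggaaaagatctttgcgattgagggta

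The probes of ITGB5, the beta chain that pairs with ITGAV, are shown because all of them stood apart on a single array. They start at bases 1133, 2079 and 2378 of the transcript and lie on the minus strand of chromosome 1 in build HGSC Btau_3.1, at chr1:70417814-70424601, where the probe spans a gap, at chr1:70380252-70380311 and at chr1:70378019-70378078.
ITGB5, base 1133: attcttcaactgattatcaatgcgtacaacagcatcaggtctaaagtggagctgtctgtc
ITGB5, base 2079: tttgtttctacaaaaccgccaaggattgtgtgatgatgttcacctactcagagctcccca
ITGB5, base 2378: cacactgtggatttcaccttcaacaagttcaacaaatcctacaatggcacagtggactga

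Pairs of probes that overlap are no independent readings, and the first 30 bases of 2 such pairs are shown with the shared letters in capitals. The LAMC1 probes share 45 of 60 bases and lie on the minus strand at chr16:61806895-61806954 and chr16:61806880-61806939. The ITGB2 probes share 54 of 60 bases and lie on the plus strand at chr1:146784447-146784506 and chr1:146784453-146784512.
LAMC1, represented by this probe: cctattgaaccaggaAAAGTCACACAGTTT
LAMC1, other probe: AAAGTCACACAGTTTTAAAGAGAAGCAAAT
ITGB2, other probe: ttatttATGTGTGAACTTCTCAGGGTATGA
ITGB2, represented by this probe: ATGTGTGAACTTCTCAGGGTATGAAGTTAC
Whether a probe lies in a coding exon or an untranslated region was not analysed here.

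Median processed signals ran from 51.1 to 154 and the share of probes above background from 61.1% to 76.9%. The lowest medians were both at day 100, 51.1 in cow 3 and 54.8 in cow 2. Next came 79.2 in cow 4 at day 30. The part of array brightness in the day 100 differences was not tested. Markers of endometrial epithelium and of stromal fibroblasts were measured on all 16 arrays for 10 of 14 and 9 of 10 genes, and those of smooth muscle, a tissue of the underlying wall, for 10 of 11. The level of a marker list is the mean, over its tested genes, of the level minus that gene's own mean over the arrays. At day 100 epithelium was at 2.65 and smooth muscle at -3.66 in cow 1, and cow 2 had -3.43 and 2.23, the widest departures of either list in both directions. Of the 31 tested members, 10 had their highest level in cow 1 at day 100 and 9 had their lowest there. The same count over all tested genes was not made. The calls at day 100 are given with and without the day 100 arrays of cows 1 and 2.

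Against day 10, 4 members were lower at a later day and none was higher. ITGAM and LAMC1 were lower at days 50 and 100, ITGB2 at day 50 and ITGA4 at day 100, each in 4 of 4 cows. At day 50, 3 of 31 members were called, beside 2.01% of the 13209 tested genes, of which 1.29% were lower and 0.727% higher. At day 100 it was again 3 of 31, beside 4.88% of genes, with 3.07% lower and 1.81% higher. Counted by probe, 3 of 60 member probes were called at day 50, beside 1.65% of all tested probes, and 7 of 60 at day 100, beside 4.6%. At day 30 no member or member probe was called, beside 0.492% of genes, with 0.485% lower and 0.00757% higher, and 0.419% of probes, and limma gave 7 of 31 members an unadjusted p under 0.05 at that day, beside 14.5% of all tested genes. The 3 later days share the day 10 arrays, so these comparisons are not independent of each other.

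Between days 30, 50 and 100 limma called no member, beside 0% of all tested genes in each of these differences. Unadjusted p under 0.05 was reached by 5 of 31 members for day 50 against day 30, beside 9.44% of genes, by 5 for day 100 against day 30, beside 12.7%, and by 1 for day 100 against day 50, beside 2.44%. The test over all days at once called 1 member, ITGAM, at an adjusted p of 0.0415, beside 1.08% of genes. The median difference from day 10 over the 31 members was -0.83 at day 30, -0.50 at day 50 and -0.78 at day 100, where the medians of all tested genes were 0.02, -0.03 and 0.01. The estimates were below 0 in 26, 20 and 21 of the 31 members.

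**Figure D1:**
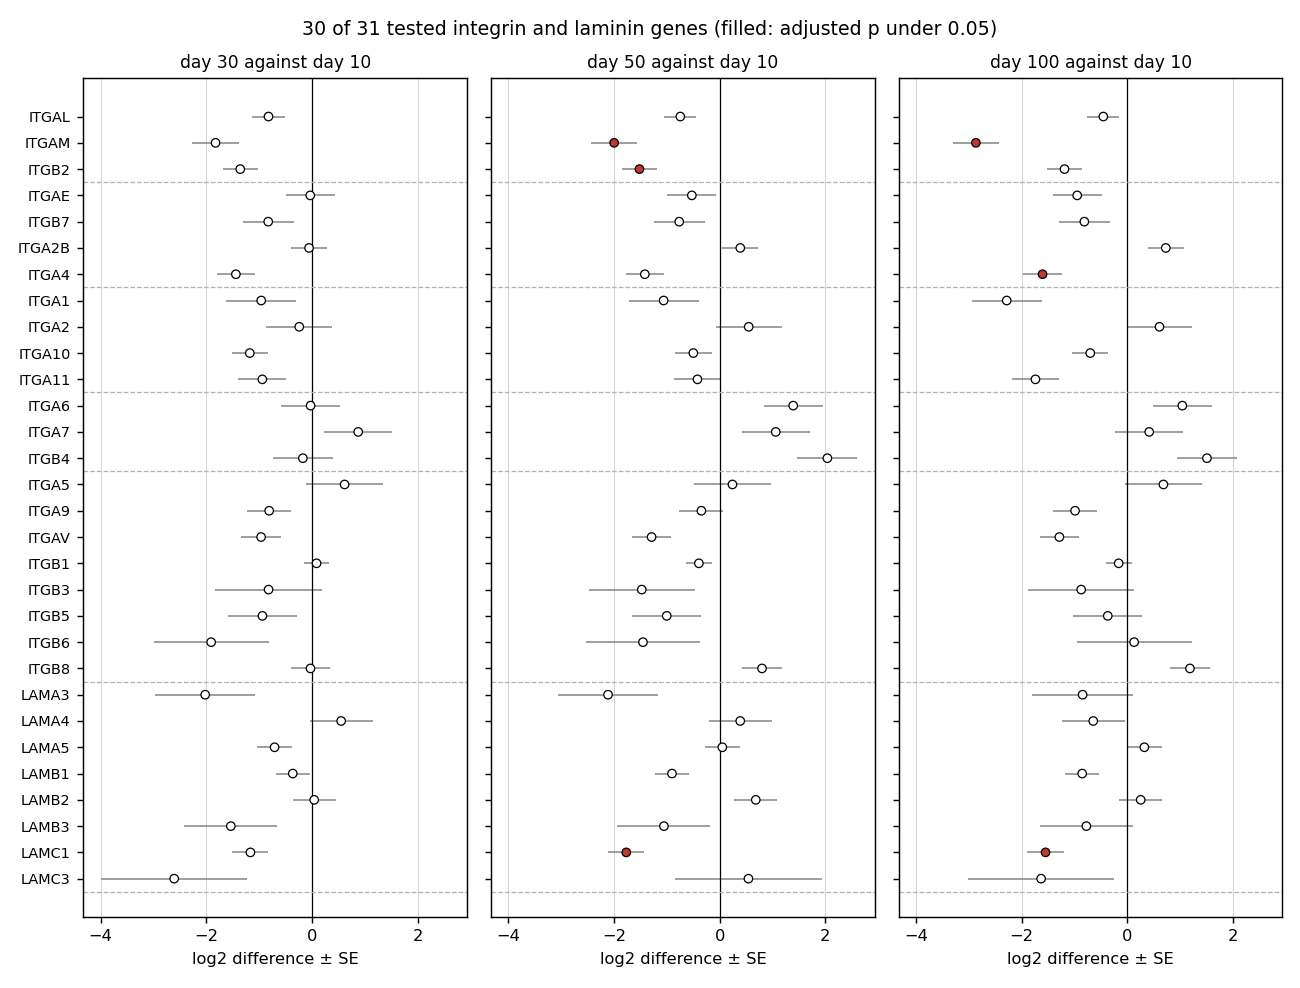
Log2 difference from day 10 with its standard error for 30 of the 31 tested integrin and laminin genes at days 30, 50 and 100, ordered by role with dashed lines between the groups; filled points have an adjusted p under 0.05. The filled points are ITGAM, ITGB2 and LAMC1 at day 50 and ITGAM, ITGA4 and LAMC1 at day 100, all below 0.

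ITGAM is the alpha chain of the complement receptor on macrophages and neutrophils. Its levels at day 10 were -5.03, -6.52, -4.86 and -4.98 in cows 1 to 4. At day 30 they were -7.61, -7.67, -6.09 and -7.32, at day 50 -7.06, -8.62, -7.28 and -6.42, and at day 100 -8.77, -8.12, -8.66 and -7.31. Every cow was highest at day 10, and the day 10 and day 100 values did not overlap. At day 50 the highest value, that of cow 4, lay just above the day 10 value of cow 2.

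By limma ITGAM fell by 2.00 ± 0.44 (log2 difference ± SE, n = 4 cows) at day 50, with an adjusted p of 0.0485. At day 100 it fell by 2.87 ± 0.44 with an adjusted p of 0.00985. The signal was dim, measured on 2 of 4 arrays at day 10, 1 at day 30, 1 at day 50 and none at day 100. The day 100 value is therefore only a bound, at least 2.33-fold lower than day 10, computed against the lowest signal well above background on each array. The difference at day 30 was -1.83, with an adjusted p of 0.100.

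The ITGAM call at day 50 held in 4 of the 20 fits that left out a cow or an array, those without the day 100 arrays of cows 1 and 2 and the day 30 arrays of cows 3 and 4, and adjusted p over the 20 fits ran from 0.0278 to 0.219. The call at day 100 was lost without cow 1 (0.0786), cow 3 (0.0706) or cow 4 (0.0504), while the difference stayed between -3.29 and -2.54. With the day 100 arrays of cows 1 and 2 both left out it was -3.10 and passed (adjusted p = 0.0190). With normexp background correction in place of the scanner's own, which moved the median of all genes at day 100 by 0.18, the day 100 difference turned to 0.23 and the day 50 difference was -0.39, neither called. The day 50 call was also lost with quantile normalization (adjusted p = 0.0506), no filter on dim probes (0.0586), no cow term (0.0803) and the epithelial and smooth muscle lists as covariates (0.140), and the day 100 call from the 8 arrays of both days alone (0.117). The other ITGAM probes were measured on 3 and 2 arrays and were not tested. Their levels lay between -6.99 and -5.34 at day 10 and between -9.09 and -8.01 at day 100, without overlap. Most of these probes' readings were not well above background, so they are no separate support. How many of all probes separate in this way was not counted.

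ITGB2, the beta chain shared by the leukocyte integrins, was measured on all 16 arrays. Its levels at day 10 were 2.61, 0.80, 1.68 and 2.41 in cows 1 to 4, and at day 30 0.27, 0.19, 1.08 and 0.51. At day 50 they were 0.28, -0.28, 0.29 and 1.13, and at day 100 1.19, 0.27, 0.92 and 0.36. Cow 2 had the lowest value on all 4 days, and its day 10 value lay within the later values of the other cows. Within each cow day 10 was the highest.

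ITGB2 fell by 1.52 ± 0.33 at day 50 (limma, adjusted p = 0.0487, n = 4 cows). The differences at days 30 and 100 were -1.36 and -1.19, with adjusted p of 0.105 and 0.0634. A second probe, which shares most of its bases with the first, and another one beside it at chr1:146784387-146784446 were called at day 100, at -1.53 (adjusted p = 0.0462) and -1.58 (adjusted p = 0.0367), and missed at day 50 at 0.0508 and 0.0513. So the gene had a called probe at both days, and which day passed differed by probe. The remaining tested probe, which starts at base 1681 of the transcript and was measured on 12 arrays, was called at neither day. Its difference at day 100 was -2.49. Its highest level, -2.29, was in cow 4 at day 50, above the -3.22 of that cow at day 10.

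The day 50 call of ITGB2 held in 3 of the 20 fits that left out a cow or an array, those without the day 100 array of cow 1, 2 or 4, with adjusted p from 0.0398 to 0.238 and differences from -1.75 to -1.25. Normexp kept it at -1.61 (adjusted p = 0.0284) and also called the day 100 difference, at -1.39 (adjusted p = 0.0284). It was lost without the cow term (adjusted p = 0.0804), with the epithelial and smooth muscle lists as covariates (0.0825), with no filter on dim probes (0.0617), from the 8 arrays of both days alone (0.0567) and with the median over the gene's probes (0.0511). The covariate fit called day 100 instead, at -1.31 (adjusted p = 0.0294).

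ITGAL, the alpha chain that pairs with ITGB2 on lymphocytes and other white cells, had levels from -1.69 to 0.93 at day 10, from -1.98 to -0.60 at day 30, from -1.77 to -0.46 at day 50 and from -2.13 to 0.18 at day 100. These groups overlap throughout. Its differences from day 10 were -0.83, -0.75 and -0.45 and none was called. Over the 3 tested leukocyte integrins the median difference was -1.36, -1.52 and -1.19 at days 30, 50 and 100.

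**Figure D2:**
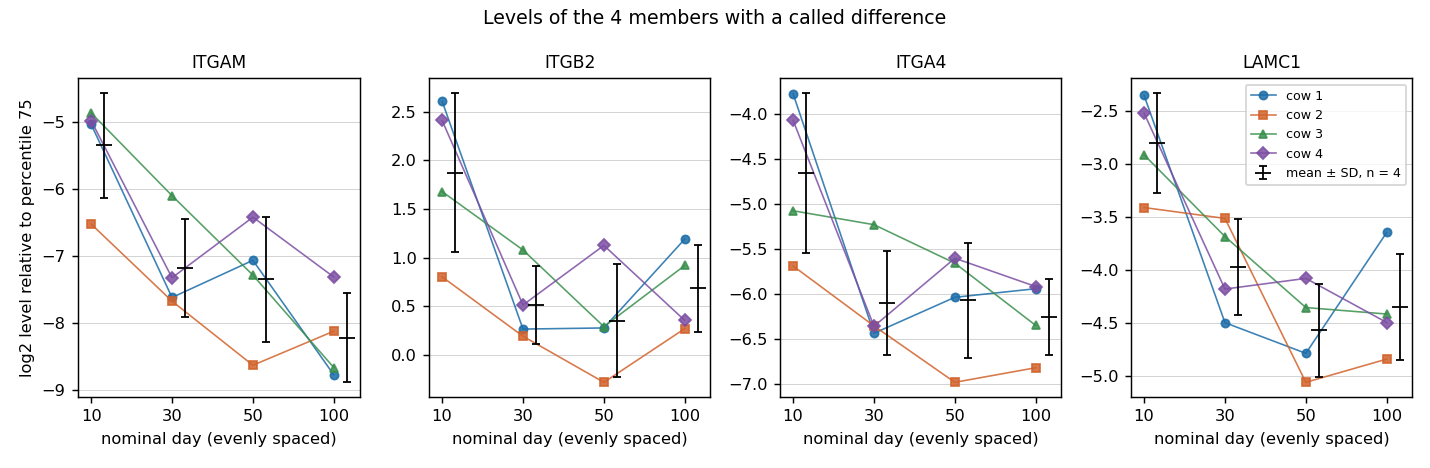
Log2 level relative to percentile 75 of the array for ITGAM, ITGB2, ITGA4 and LAMC1, 1 line per cow over the 4 nominal days, with the mean and SD of 4 cows in black. Every cow is highest at day 10 in all 4 panels, and cow 2 starts lowest of the 4 cows.

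Of the white blood cell lists, that of macrophages held the most called genes. All 11 tested macrophage markers of 12 listed fell at day 100, 6 fell at day 30 and 5 at day 50, with CSF1R, the growth factor receptor of macrophages, at -2.43, -2.02 and -2.24. The macrophage list stood between 0.83 and 2.72 at day 10, between -1.55 and 0.30 at day 30, between -1.75 and 1.13 at day 50 and between -1.42 and 0.06 at day 100. The neutrophil list, with 7 of 10 genes tested, stood between 0.29 and 3.84 at day 10 and from -1.79 to 1.47 afterwards, and 1 of its genes, S100A12, fell at day 50. The neutrophil receptors CSF3R and CXCR2 were not among the tested genes.

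Among the other white blood cell lists, calls were few. Of 5 tested mast cell markers 2 rose at day 50 and 1 at day 100, with list medians of 0.90, 1.93 and 0.97 at days 30, 50 and 100. Of 11 tested T and NK cell markers 1 rose and 2 fell at day 100, with medians of -0.49, 0.16 and -0.27. None of 5 tested B and plasma cell markers was called by limma, with medians of -0.14, -0.05 and 0.04. The part of these cells in the leukocyte integrin differences was not tested, and in whole tissue fewer cells of a type and less RNA per cell cannot be told apart.

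Among the integrins known mainly from blood cells, ITGA4 was the member with a called difference. It pairs with ITGB1 or ITGB7 and binds VCAM1 on endothelium. Its levels were -3.78, -5.69, -5.08 and -4.07 in cows 1 to 4 at day 10 and -6.44, -6.36, -5.23 and -6.36 at day 30. At day 50 they were -6.04, -6.99, -5.66 and -5.61 and at day 100 -5.95, -6.82, -6.35 and -5.92. No day 100 value reached the lowest day 10 value, which was that of cow 2, and days 30 and 50 each overlapped day 10 through cow 2.

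ITGA4 fell by 1.61 ± 0.36 at day 100 (limma, adjusted p = 0.0346, n = 4 cows), and the differences at days 30 and 50 were -1.44 and -1.42 with adjusted p of 0.113 and 0.0752. The probe was measured on 13 arrays, 4 of them at day 10 and 3 at each later day, and lies at chr2:15561776-15561835. The call held in 9 of the 20 fits that left out a cow or an array, none of them a fit without a whole cow, with adjusted p from 0.0269 to 0.133. It was lost under normexp, where the difference was 0.12, under quantile normalization (0.0503), without the cow term (0.0567) and from the 8 arrays of both days alone (0.133). The adjusted p was 0.0543 without the day 100 array of cow 1, and without those of cows 1 and 2 together the difference was -1.76 with an adjusted p of 0.0718. A second ITGA4 probe was measured on 1 array and was not tested.

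ITGB7, the partner of ITGA4 and ITGAE on gut-homing and epithelial lymphocytes, reached 1.67 and 1.74 on the day 10 arrays of cows 1 and 4 and lay between -0.51 and 0.97 on all other arrays. ITGAE, which binds E-cadherin on epithelium, ran from -2.94 to 0.22 with its 2 lowest values in cow 4 at day 100 and cow 3 at day 50. ITGA2B, the platelet integrin alpha chain, ran from -3.46 to -1.71. None of them was called, with differences from day 10 between -0.95 and 0.73. Of 7 platelet markers, 2 were tested and none was measured on all 16 arrays.

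LAMC1 was the only laminin chain called. Its levels at day 10 were -2.36, -3.41, -2.92 and -2.52 in cows 1 to 4, and at day 30 -4.50, -3.52, -3.69 and -4.18. At day 50 they were -4.79, -5.06, -4.36 and -4.08, and at day 100 -3.65, -4.84, -4.42 and -4.50. All 12 later values lay below all 4 day 10 values. Among the 31 members, LAMC1 alone had day 10 values that overlapped those of no later day. How many of all tested genes share this was not counted.

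LAMC1 fell by 1.77 ± 0.34 at day 50 (limma, adjusted p = 0.0340, n = 4 cows) and by 1.55 ± 0.34 at day 100 (adjusted p = 0.0315). At day 30 the difference was -1.17 with an adjusted p of 0.165. The overlapping second probe gave -1.48 (adjusted p = 0.0618) at day 50 and -1.40 (adjusted p = 0.0483) at day 100. With the levels of the epithelial and smooth muscle lists as covariates the differences were -1.92 and -1.73, with adjusted p of 0.0316 and 0.00846.

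The LAMC1 call at day 50 held in 9 of the 20 fits that left out a cow or an array, with adjusted p from 0.0234 to 0.174, and was lost without any one cow. The call at day 100 held in 12 of 20, with adjusted p from 0.0227 to 0.178, and was lost without cow 1, 3 or 4. Under normexp the differences were -0.94 and -0.29 and neither was called (adjusted p = 0.107 and 0.491). Without the day 100 array of cow 1, the day 100 difference was -1.82 with an adjusted p of 0.0258, and without those of cows 1 and 2 together it was -1.81 with 0.0406. From the 8 arrays of both days alone the day 100 call was lost (0.124).

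The other 8 tested laminin chains did not pass at any day. LAMB1, the beta chain that accompanies LAMC1 in many laminins, ran from 3.70 to 3.98 at day 10 and from 2.72 to 3.09 at day 50, without overlap, yet its difference of -0.90 ± 0.32 had an adjusted p of 0.164. At day 100 LAMB1 stood at 1.68 in cow 1 and between 3.20 and 3.71 in the other cows. LAMB2 and LAMA4, chains of vessel and muscle basement membranes, had their lowest levels in cow 1 at day 100, at -0.58 and -2.72, against lowest values of -0.17 and -0.12 on any other array. A second tested probe of LAMB2 did not share this, with its lowest level, -6.10, in cow 4 at day 10. LAMA5, an alpha chain of epithelial and vessel basement membranes, was measured on 7 arrays, none of them at day 30. It lay between -7.53 and -6.68 at day 30 and between -6.57 and -5.32 at day 100, without overlap. The day 30 value is therefore only a bound, with day 100 at least 1.25-fold higher (limma, adjusted p = 0.296). The LAMA5 differences from day 10 were -0.71, 0.05 and 0.32, where its second tested probe gave -0.39, 0.12 and -0.57. The file describes the LAMB2 probe as laminin gamma 1, formerly LAMB2, which is the gene now called LAMC1. The probe's position, chr22:51829533-51829592, lies apart from that of the LAMC1 probes, which are on chromosome 16.

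LAMB3, the beta chain of laminin-332, was higher in cows 1 and 4 at day 10, with 2.02 and 2.62 in cows 1 and 4 and 0.10 and 0.53 in cows 2 and 3, and its highest level, 3.13, was in cow 1 at day 100. LAMA3, the alpha chain, was measured on 3 arrays at day 10, where it stood at -3.89, -8.76, -6.82 and -5.21 in cows 1 to 4, and on 1 array at day 100, where cow 1 stood at -4.03 and the others at or below -7.95. LAMC3, a gamma chain outside laminin-332, had day 10 levels of 0.07, -5.06, -4.69 and -0.18, and its lowest level was -8.36 in cow 4 at day 30. The standard error of a LAMC3 difference, 1.39, was the widest among the members. The genes of this paragraph and the next were picked after their values were seen.

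ITGB6, an epithelial beta chain that binds latent TGF-beta, repeated the pattern, with -3.55 and -3.54 in cows 1 and 4 at day 10 and -3.13 in cow 1 at day 100. It was measured on 4 arrays in all, and all other levels lay at or below -5.91. On the day 10 arrays of cows 1 and 4 the neutrophil list stood at 3.84 and 3.68, against 0.37 and 0.29 in cows 2 and 3. The epithelial list stood at 0.59 and 0.76 there, against -2.70 and -0.84, and the smooth muscle list at -1.69 and -1.81, against 1.68 and 1.35. Their part in these levels was not tested. No difference between days was called for LAMA3, LAMB3, LAMC3 or ITGB6.

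**Figure D3:**
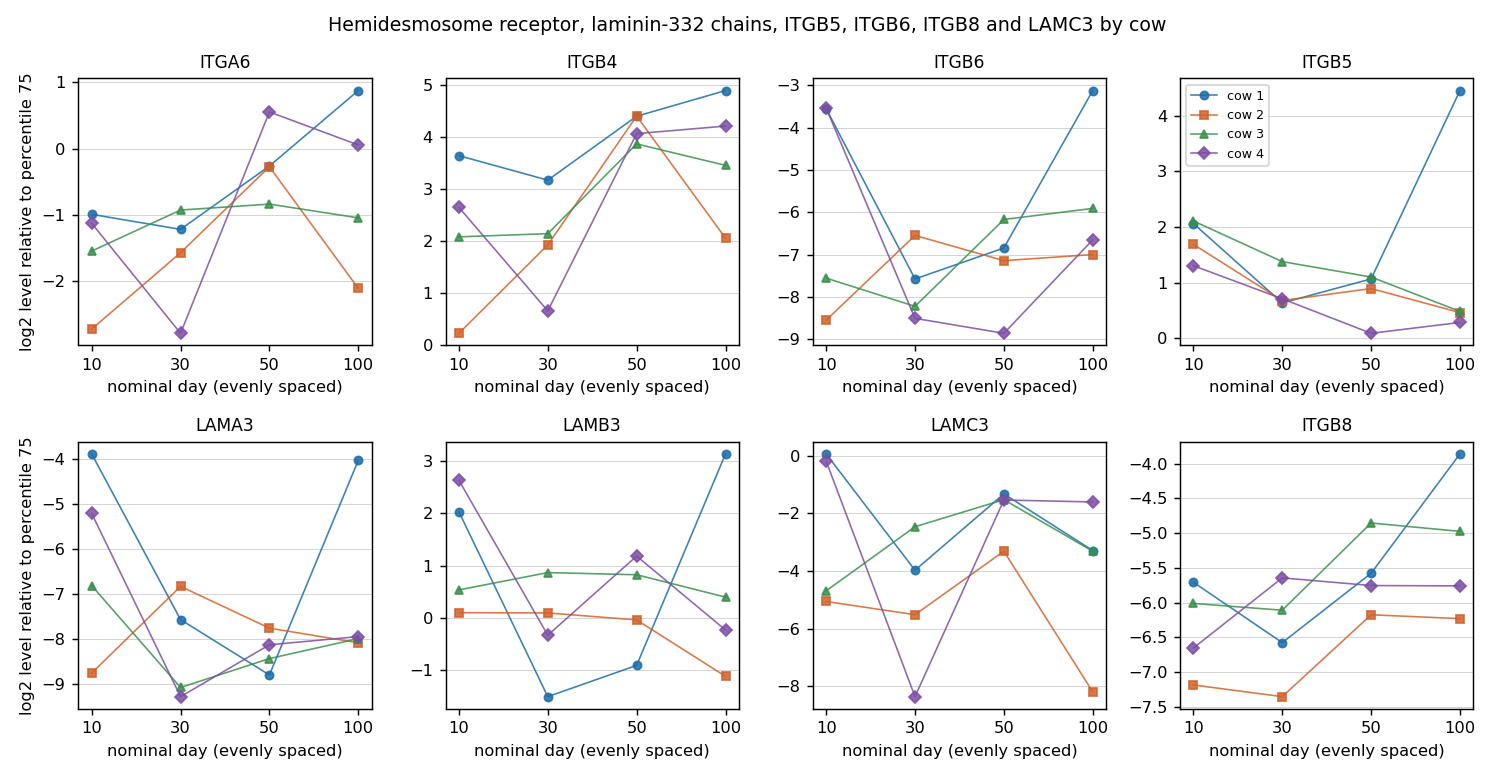
Log2 level relative to percentile 75 of the array by cow over the 4 nominal days for the hemidesmosome receptor chains ITGA6 and ITGB4, the laminin-332 chains LAMA3 and LAMB3, and ITGB5, ITGB6, ITGB8 and LAMC3. Cow 1 at day 100 is highest in the panels of ITGA6, ITGB4, ITGB6, ITGB5, ITGB8 and LAMB3, and cows 1 and 4 are the highest of the day 10 arrays for ITGB6, LAMA3, LAMB3 and LAMC3.

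The laminin-binding integrins were the group whose estimates lay above 0 at days 50 and 100, and none was called. Medians over 3 tested chains were 1.39 and 1.04 there, against -0.03 at day 30. For ITGA7, 1 of these chains, the probe that represents it gave 0.41 at day 100 and its second tested probe gave -0.31. ITGB4, the hemidesmosome beta chain, stood at 3.64, 0.22, 2.08 and 2.64 in cows 1 to 4 at day 10 and at 3.17, 1.92, 2.14 and 0.65 at day 30. At day 50 it stood at 4.40, 4.40, 3.87 and 4.06, and at day 100 at 4.89, 2.05, 3.45 and 4.21. All 4 day 50 values lay above all values of days 10 and 30. The SD at day 50, 0.26, was the smallest of the 4 days, where day 10 had 1.44.

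The ITGB4 difference from day 10 was 2.04 ± 0.57 at day 50 (limma, adjusted p = 0.0929, 4 of 4 cows higher) and 1.51 ± 0.57 at day 100 (adjusted p = 0.130, 4 of 4 cows higher). At day 30 it was -0.18, with 2 cows higher and 2 lower. The intervals, before adjustment for the number of probes, ran from 0.79 to 3.28 at day 50 and from 0.26 to 2.75 at day 100. They leave out 0, but ITGB4 was picked for the smallest p over all days in its group. They are therefore no separate support for a difference. The difference of day 50 from day 30 was 2.21 with an adjusted p of 0.435. The epithelial list was higher at day 50, between 0.78 and 1.15, than at day 10, between -2.70 and 0.76, and with both tissue lists as covariates the ITGB4 difference was 1.04 at day 50 (adjusted p = 0.206) and 1.22 at day 100, where it passed (adjusted p = 0.0439).

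ITGA6, the alpha partner of ITGB4, also lay higher on all day 50 arrays, between -0.84 and 0.55, than on those of day 10, between -2.72 and -0.99, and day 30, between -2.79 and -0.93. Its difference of 1.39 had an adjusted p of 0.211. ITGA7, the laminin receptor chain of muscle, ran from -0.58 in cow 1 at day 100 to 2.82 in cow 2 at day 50. On those arrays the smooth muscle list stood at -3.66 and 1.63.

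Of the collagen-binding alpha chains, ITGA11, known from fibroblasts, came nearest to a call. It stood at -5.41, -6.15, -4.80 and -5.51 in cows 1 to 4 at day 10, at -6.04, -6.72, -5.93 and -6.95 at day 30 and at -5.54, -6.47, -5.74 and -5.81 at day 50. At day 100 it stood at -8.79, -6.63, -6.40 and -7.02, below every day 10 value, and was not well above background on any array. The bound is at least 2.13-fold lower at day 100 (limma, adjusted p = 0.0523), and the difference of -1.74 ranged from -2.16 to -1.13 over the 20 fits that left out a cow or an array. Without the day 100 array of cow 1 it was -1.13 and passed (adjusted p = 0.0441), and normexp turned it to 0.40.

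ITGA1, the alpha chain that pairs with ITGB1 as a collagen receptor of smooth muscle and stroma, was also lower on every day 100 array, between -4.08 and -2.05, than at day 10, between -1.90 and 0.04. Its difference of -2.28 ± 0.66 had an adjusted p of 0.0682. ITGA10 ran from -3.09 to 0.01 and ITGA2, an epithelial and platelet chain measured on 7 arrays, from -8.41 to -4.80, and neither had a called difference. The lowest ITGA1 level and the highest ITGA2 level were both in cow 1 at day 100.

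Among the receptors of fibronectin, vitronectin and osteopontin, ITGAV had the smallest p over all days. ITGAV is the alpha chain that pairs with ITGB1, ITGB3, ITGB5, ITGB6 or ITGB8. It stood at 1.83, 1.20, 1.55 and 2.08 in cows 1 to 4 at day 10 and at 0.43, 0.32, 1.28 and 0.77 at day 30. At day 50 it stood at 0.15, -0.15, 0.79 and 0.71 and at day 100 at 1.25, 0.47, -0.64 and 0.43. Day 50 lay wholly below day 10, and day 100 overlapped it through cow 1.

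The ITGAV differences of -0.97, -1.29 and -1.29 at days 30, 50 and 100 were not called, with adjusted p of 0.288, 0.103 and 0.0687. Of its 4 tested probes, the dimmest, which starts at base 826 of the transcript and was measured on 9 arrays, was called at day 100, at -1.90 ± 0.47 (limma, adjusted p = 0.0437). The other 3 gave -1.29 to -1.24 there. Without the day 100 array of cow 1 the probe that represents ITGAV passed at day 100, at -1.61 (adjusted p = 0.0392).

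ITGB5 departed on a single array. It stood at 2.06, 1.69, 2.11 and 1.31 in cows 1 to 4 at day 10, at 0.64, 0.68, 1.38 and 0.71 at day 30 and at 1.07, 0.90, 1.10 and 0.09 at day 50. At day 100 it stood at 4.45 in cow 1 and at 0.46, 0.49 and 0.29 in the other cows. The other probes, which share no bases with this one, gave 4.62 and 0.42 in cow 1, against at most 0.07 and -5.09 in the other cows at day 100.

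With all arrays the ITGB5 difference from day 10 was -1.003 at day 50 and -0.37 at day 100, with adjusted p of 0.44 and 0.746. Without the day 100 array of cow 1 it was called at both days, at -1.003 ± 0.21 (limma, adjusted p = 0.0402) and -1.34 ± 0.24 (adjusted p = 0.0220). At day 100 the other probes then gave -2.25 and -1.51, called as well. The epithelial list was highest on that array, and its part in the ITGB5 level was not tested. This gene was picked after its values were seen.

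**Figure D4:**
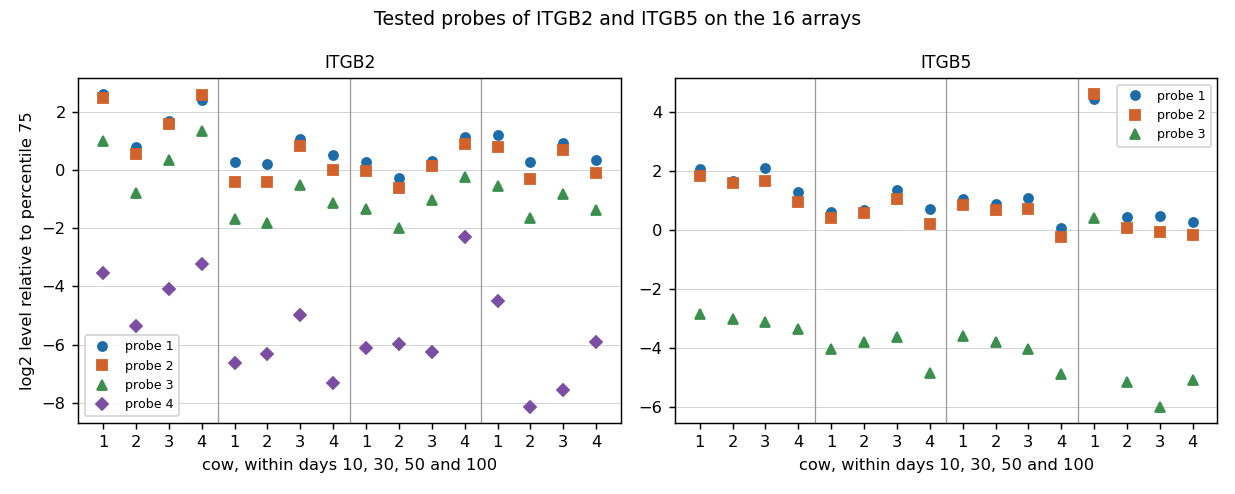
Log2 level relative to percentile 75 of the array for the 4 tested probes of ITGB2 and the 3 tested probes of ITGB5, with the cows side by side within days 10, 30, 50 and 100 and the probes numbered from the brightest. Cow 2 is lowest at day 10 in all 4 ITGB2 probes, and all ITGB5 probes are highest in cow 1 at day 100.

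ITGB1, the beta chain of most matrix integrins, stood between 1.88 and 2.21 at day 10 and between 1.44 and 1.81 at day 50, and the standard error of its differences, 0.25, was the smallest among the members. Its difference at day 50 was -0.39 with an adjusted p of 0.419. ITGB3, the partner of ITGA2B and ITGAV, stood at -2.60 in cow 1 at day 100 and between -7.17 and -6.67 in the other cows. ITGB8, an epithelial partner of ITGAV, had estimates of 0.80 and 1.18 at days 50 and 100 and ITGA9, a receptor of tenascin, of -0.35 and -0.99, none called.

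ITGA5, the fibronectin receptor chain, stood at 0.08 in cow 1 at day 30 and -0.06 in cow 2 at day 100, against levels from -4.24 to -1.92 on the other arrays. Its second tested probe gave no value on the first of these arrays, where the spot was marked nonuniform, and -6.71 on the second, within its range of -7.48 to -5.80. So the 2 probes differed there. In all, 18 member genes had several tested probes, and the probes lay on the same side of 0 in 15 of them at day 30, 15 at day 50 and 14 at day 100. LAMB2 had probes on both sides of 0 on all 3 days.

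**Figure D5:**
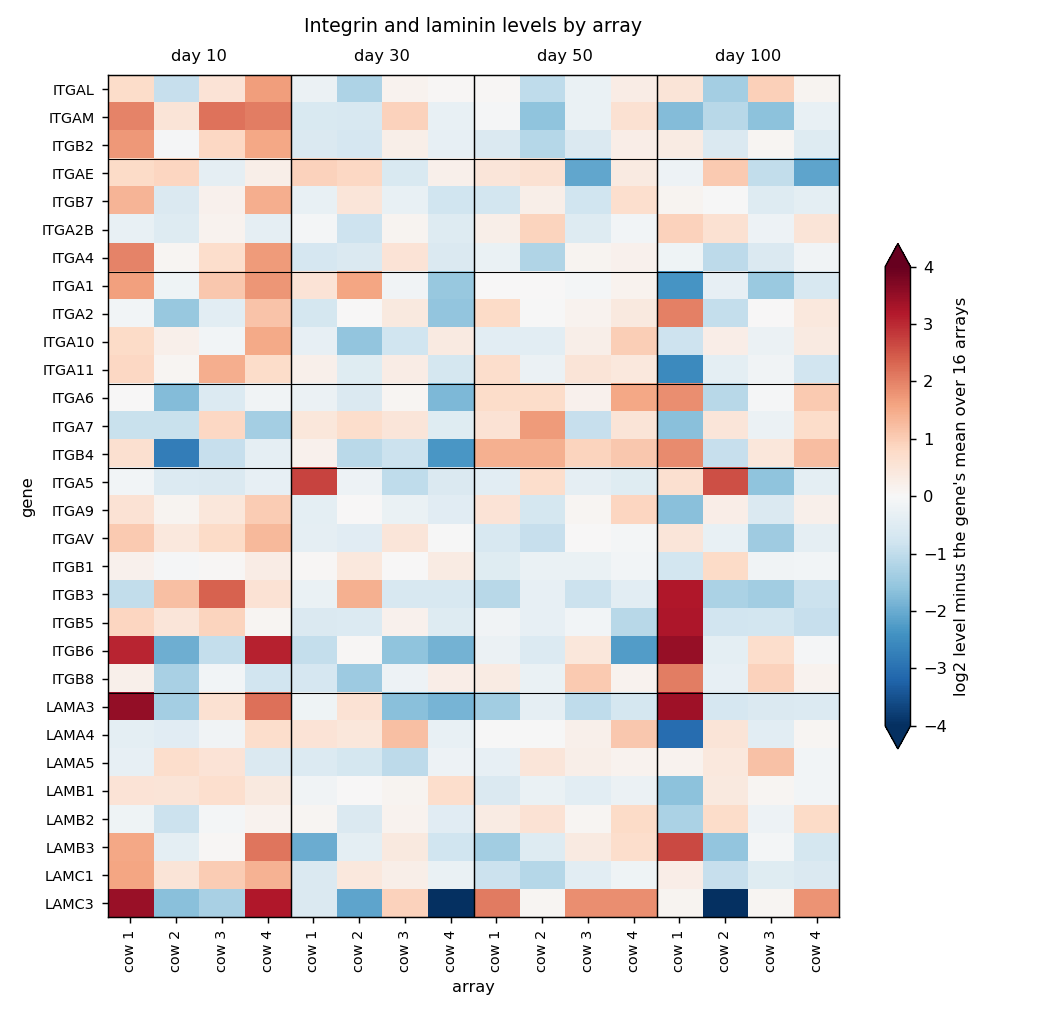
Log2 level minus the gene's mean over the 16 arrays for 30 of the 31 tested members, with arrays in columns by day and cow, genes in rows by role with lines between the groups, and colours that saturate at 4 either way. The day 100 array of cow 1 stands out with ITGB5 at its highest level and LAMA4 at its lowest, and LAMC3 is lowest in cow 4 at day 30.

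Partners of these receptors were counted in lists, to be read beside the 3.07% of all tested genes that were lower at day 100. Of 11 tested integrin ligands of 12 listed, 2 fell at day 100. SPP1, or osteopontin, had a difference of -4.90 ± 0.80 (limma, adjusted p = 0.0118) and TNC, or tenascin-C, one of -4.88 ± 1.08 (limma, adjusted p = 0.0320), and none was called at days 30 and 50. SPP1 stood at -1.30, 2.75, 3.93 and 0.92 in cows 1 to 4 at day 10 and at -4.23, -2.74, -2.93 and -3.42 at day 100. TNC stood at 4.88, 5.78, 5.71 and 4.35 at day 10 and at -3.26, 3.16, 0.56 and 0.73 at day 100. Neither gene overlapped between these days. The TNC difference without the day 100 array of cow 1 was -3.91 and not called (limma, adjusted p = 0.0588), as without those of cows 1 and 2 together (-4.46, adjusted p = 0.0636), while SPP1 passed both times. The list's median difference at day 100 was -1.69, beside 0.01 over all genes.

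Of 14 basement membrane partners, 1 fell at day 100, COL4A2, a chain of the collagen IV network, by 2.63 ± 0.67 (adjusted p = 0.0492). Its day 10 levels ran from 2.08 to 3.35, and its day 100 levels were -0.98, 2.18, -1.62 and 0.59 in cows 1 to 4, so that cow 2 overlapped. Without the day 100 array of cow 1 the difference was -2.16 and not called (limma, adjusted p = 0.0938), and without those of cows 1 and 2 together it was -2.97 and passed (0.0410). The list's medians were -0.51, -0.11 and -0.32 at days 30, 50 and 100. None of the 4 hemidesmosome partners was called, with medians of -0.23, -0.24 and -0.41.

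Among ligands of leukocyte integrins, 1 of 7 fell, ICAM1, the endothelial ligand of the ITGB2 group, by 2.19 ± 0.41 at day 100 (limma, adjusted p = 0.0189). It stood at -0.79, -1.94, -1.51 and -0.88 at day 10 and at -4.37, -2.83, -3.73 and -2.96 at day 100, without overlap. Of 21 tested focal adhesion adaptors of 22 listed, 2 fell, and both are forms known from blood cells. PARVG, or gamma-parvin, fell by 1.92, 1.67 and 2.02 at days 30, 50 and 100 (adjusted p = 0.0471, 0.0434 and 0.0146), and FERMT3, or kindlin-3, which activates integrins in white blood cells and platelets, fell by 1.67 ± 0.41 at day 100 (adjusted p = 0.0448). FERMT3 was not called without the day 100 array of cow 1 (adjusted p = 0.0673), nor without those of cows 1 and 2 together (0.0650), and PARVG at day 30 was not called without that of cow 2 (0.0618) or both (0.0620). ICAM1 at day 100 and PARVG at days 50 and 100 passed in these fits. The adaptors' medians were -0.11, -0.49 and -0.85.

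Outside the rule, 2 probes with other names in the files are ITGA8 and LAMA2 by the RefSeq gene table of assembly ARS-UCD2.0. LAMA2, the laminin alpha chain of muscle, was not called, with differences from day 10 of -0.22, 0.69 and 0.54 at days 30, 50 and 100. ITGA8 pairs with ITGB1 in stroma and smooth muscle. It fell by 3.75 ± 0.77 at day 100 (limma, adjusted p = 0.0250), from levels between 3.58 and 4.99 at day 10 to -1.84, 3.41, -0.45 and 1.17 in cows 1 to 4. It passed without the day 100 array of cow 1 (-2.85, adjusted p = 0.0332) and without those of cows 1 and 2 together (-3.77, adjusted p = 0.00639). The order of the cows at day 100 was that of the smooth muscle list at its ends, with cow 2 highest and cow 1 lowest, and the part of that list was not tested.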

How the data were processed

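RNA from endometrial biopsies was measured on 16 one-colour arrays, 1 per cow and day. The deposited scanner files hold linear intensity values, background-subtracted and detrended per the file headers by Agilent Feature Extraction 11.5.1.1; the submitters' processing notes name version 10.5.1.1. Per the file headers, other deposited columns of 0 and 1 flag each spot as nonuniform, saturated or well above background. No spot was saturated. The authors' deposited log2 value table matched these intensities after percentile 75 scaling and served as an alternative.

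Spots marked nonuniform, 4 to 125 per array, were left out. Log2 processed intensity minus the array's percentile 75 was averaged over the spots of a probe, giving 43653 probes. The 33182 probes well above background on at least 4 arrays entered a model with day and cow as terms (limma 3.58.1, R 4.3.3), with 9 residual degrees of freedom, two-sided tests and Benjamini-Hochberg adjustment. The number of arrays limits precision, and the median standard error was 0.36. Each cow had its own slide, so cow and slide are 1 term. The 4 biopsies came from the same animal, which is where the pairing comes from; deviations from the day means correlated with a median of 0.13 within a cow (24 pairs) and -0.04 between cows (72 pairs).

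All 76 member probes matched RefSeq symbols by name, 42 of them also by accession. 1 tested member enters the counts but is not reported here. Members and lists were chosen with earlier results of these data known. Array values were printed for members called in any test and for the member with the smallest p over all days in each role group; partner genes were named where called. The script was tested on simulated data. Alternatives were normexp with offset 50, quantile normalization, the authors' table, 2 filters, no cow term, array weights, 2 tissue covariates, the 8 arrays of 2 days, the median over probes, and leaving out each cow or array. One fit without the day 100 arrays of cows 1 and 2 was added after seeing the data.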

Additional observations from a re-analysis of the deposited data

Results flagged for a closer look

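Of 124 groups of 4 arrays, 1 for each tested member and day, 9 held an array whose gap to the nearest other array exceeded Dixon's critical value, and chance marks about 1 group in 20. Cow 1 at day 100 stood above the other cows in 3 of them, with ITGB5 at 4.45 against 0.29 to 0.49, ITGB3 at -2.60 against -7.17 to -6.67 and LAMA3 at -4.03 against -8.09 to -7.95. Cow 3 stood apart in 3, with ITGA4 at -5.23 against -6.44 to -6.36 at day 30, ITGB5 at 1.38 against 0.64 to 0.71 at day 30 and ITGAE at -2.88 against -0.44 to -0.20 at day 50. Cow 2 stood apart in 3, with ITGAM at -6.52 against -5.03 to -4.86 at day 10, ITGA5 at -1.92 against -3.11 to -3.00 at day 50 and LAMC3 at -3.31 against -1.53 to -1.32 at day 50.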

How the results depend on the processing

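Of the integrin and laminin genes, 3 were called at day 50, 3 at day 100 and 1 over all days. At day 50 the count was 1 with normexp, 1 with no filter on dim probes, 1 in the fit without the replicate block of cows and 9 with array weights. At day 100 it was 1 with normexp, 1 with probes above background on all 16 arrays, 5 with array weights, 7 with the tissue covariates and 0 from the 8 arrays of both days alone, where limma has fewer samples. The day 100 member called with normexp was ITGB2, so none of the 3 main calls held there. All 3 main calls were among the 5 with array weights and the 7 with the covariates. Over all days the count was 0 with probes above background on all 16 arrays, 0 without the block, 5 with array weights and 2 with the covariates. Without the day 100 arrays of cows 1 and 2, a fit chosen after seeing the data, the counts were 6, 5 and 2. With 1 cow or array left out, day 50 had 0 to 4 called members, day 100 had 0 to 6, the test over all days 0 to 1 and the other 4 comparisons 0. Quantile normalization gave 2 at day 50 and 2 at day 100, and the deposited values of the authors gave 3 at each. Reversed differences were ITGA11 at day 30 (0.077) and day 100 (0.40), ITGA4 at day 100 (0.12) and ITGAM at day 100 (0.23) with normexp. For ITGB4 at day 30, the uncalled difference was 0.44 with array weights and ran from -0.80 without cow 2 to 0.43 without cow 4, with 0.03 and 0.09 without the day 10 arrays of cows 1 and 4, and 0.37 without the day 30 array of cow 4. The cause was not tested. For single genes, 564 further values kept direction and side of the threshold, 84 lost the call and 16 gained it. Most of the 564 belong to differences that were not called in the main fit and stayed so, while all 84 losses fall on called differences. Those called differences held in 3 (ITGB2 at day 50) to 17 (ITGAM at day 100) of the 20 fits that left out a cow or an array. A separate slide term was not run, because each cow had its own slide. The dim signals of ITGAM, ITGA4 and ITGA11 lie close to background, which limits their differences.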
